A study of Mus musculus with 6 samples.

Results

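Wnt ligands are secreted, lipid-modified glycoproteins, and 10 mouse Wnt genes are described here in embryonic heads with and without Arid3b: Wnt1, Wnt3a and Wnt8b, grouped as ligands of the dorsal midline of the neural tube, Wnt3, Wnt4, Wnt6 and Wnt7b, grouped as ligands made in ectoderm, and Wnt5a, Wnt5b and Wnt11, grouped as noncanonical ligands. The genes were chosen by name, with earlier results of these data known. Any non-control probe whose RefSeq accession belonged to one of them was taken, which gave 12 probes of 39429 and 10 genes of the 20021 named on the array. In the canonical pathway a Wnt binds a Frizzled receptor and an Lrp coreceptor, beta-catenin escapes degradation and Tcf/Lef factors switch on target genes. In noncanonical signalling, Wnts act through Frizzled, Ror and Ryk receptors on cell polarity and movement. Wnt1 and Wnt3a are known in this tissue for the growth of the midbrain and of neural crest, Wnt5a for outgrowth of the face.

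The study compared 3 Arid3b-null samples with 3 wild type samples of heads taken at embryonic day 9.5, with the first branchial arch included. The Arid3b protein binds AT-rich DNA through its ARID domain. A sample was a pool of 4 embryos, whose RNA went onto 1 Agilent array in a single colour. Allele, strain and litters are not stated by the labels, and the p-values therefore measure how far pools differ, which may be technical. In RNA of whole heads, fewer cells of a type and less RNA per cell cannot be told apart. Every null array lay in position 2 and every wild type array in position 1 of a slide that held 1 array of each group, and these cannot be told apart from each other.

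The arrays resembled each other in quality: 67.9% to 70.3% of non-control spots were well above background, no spot was saturated, and across genes the log2 values correlated at 0.992 to 0.993 among null arrays, 0.977 to 0.986 among wild type arrays and 0.965 to 0.975 between groups. Arid3b itself was lower in null heads on all 3 of its probes, by 1.19, 1.37 and 2.33 on the log2 scale (limma adjusted p of 0.0332, 0.0224 and 0.000758 in the fit of all probes), and whether any probe lies in the deleted part is not known here. In the fit of genes, the call of its brightest probe (adjusted p of 0.0266) was lost without null replicates 1, 2 and 3 (0.0891, 0.0859 and 0.0697). Of 12 head markers all 12 were measured, while 8 of 10 Hox genes of the trunk were not well above background on every array of either group; Hoxb8, one of the other two, had processed signals of 96.5, 35.2 and 101 on null arrays, against 2.03, 14.4 and 8.35 on wild type arrays, 2 of which passed the background flag. Across the array 3506 of 14906 genes changed at a limma adjusted p under 0.05, which is 23.5%, with 12.3% higher and 11.2% lower. That count was 1467, 1838 and 1858 without null replicates 1, 2 and 3. It was 2148, 2207 and 5209 without wild type replicates 1, 2 and 3.

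Of the 10 ligands, 9 were bright enough to test, and 3 of these 9 rose in the null heads. Wnt1, of the midbrain roof and the midbrain-hindbrain boundary, was 2.50-fold higher. Wnt4, known from ectoderm and from kidney and gonad, was 1.96-fold higher, and Wnt6, a ligand of surface ectoderm, 1.48-fold higher. No ligand fell at an adjusted p under 0.05 in limma. At an unadjusted p under 0.05, 1 of 9 was lower (Wnt5a) and the same 3 were higher. At that unadjusted p in limma, 2768 of all 14906 genes were higher and 2838 lower. At the adjusted threshold the 3 rises of 9 stand beside 12.3% of all genes. The median log2 difference of the 9 was 0.34 beside -0.04 for all genes. As single probes, 4 of the 11 tested rose, beside 9.38% of all kept probes, and 0 fell, beside 8.58%. In either direction 18.0% of probes were called. At an unadjusted p under 0.05 in limma, 5 ligand probes were higher and 1 lower. The unadjusted share over all probes was not counted. At 5 of 9 genes the arrays of the groups did not overlap, beside 42.4% of all genes; 4 of these were higher and 1 lower, beside 20.6% and 21.8% of all genes. For probes this held at 7 of 11, beside 38.5% of all kept probes, with 6 higher and 1 lower, beside 18.3% and 20.2%. Only 1 gene (Wnt1) was called higher without null replicate 1, and 2 probes without null replicate 1, null replicate 3 or wild type replicate 1.

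**Figure D1:**
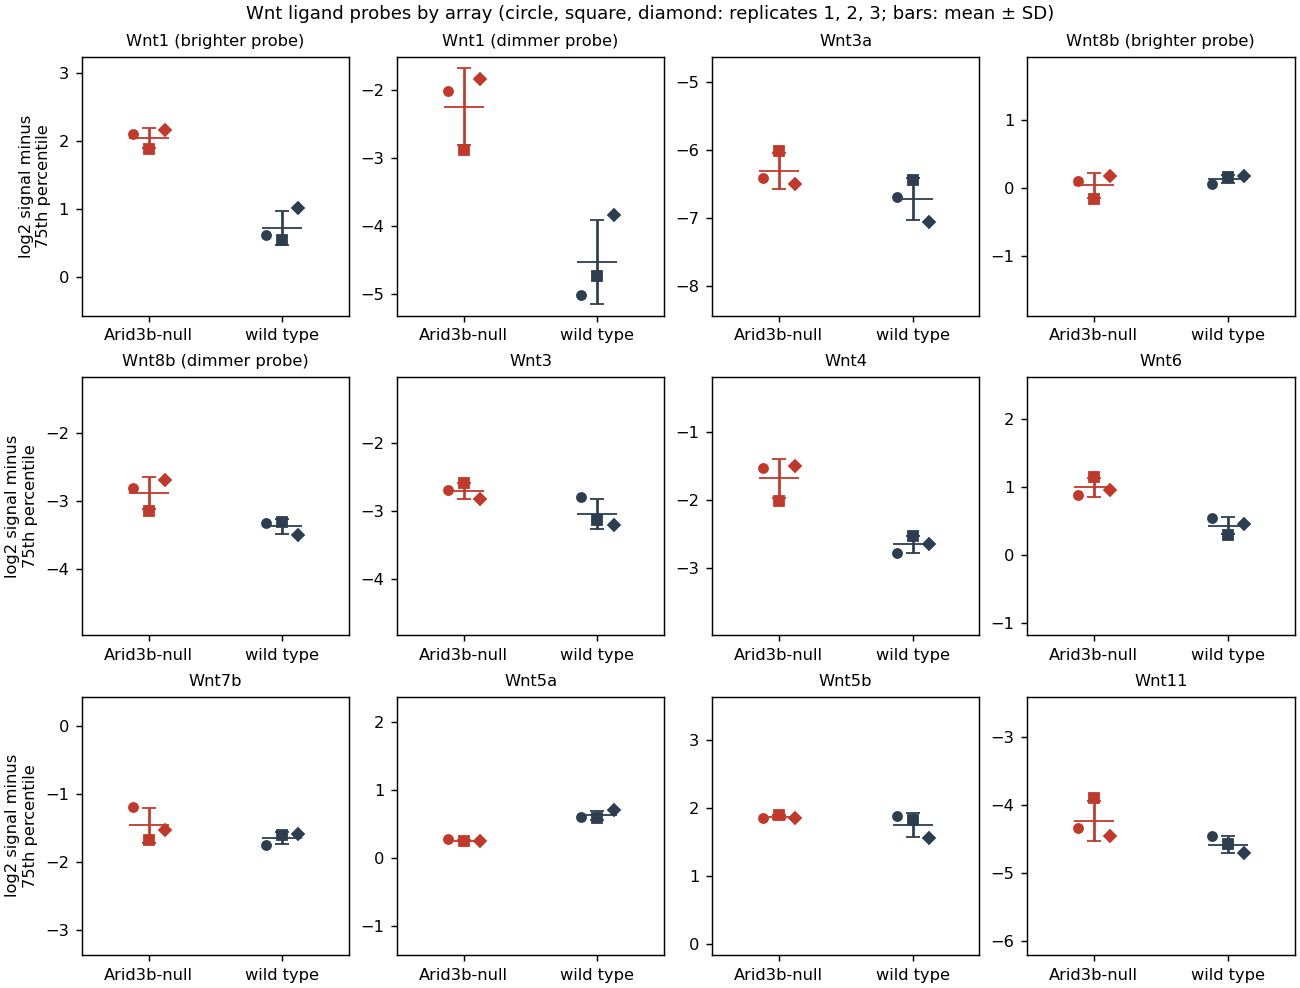
Log2 signal relative to the 75th percentile of the array (vertical axis, log scale) for each of the 12 Wnt probes, with Arid3b-null arrays left and wild type arrays right; points are arrays and bars the mean ± SD of 3. The null arrays lie above every wild type array for both Wnt1 probes, Wnt4, Wnt6, the dimmer Wnt8b probe and, narrowly, Wnt11, and below every one for Wnt5a.

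To show the letters around the starts of the genes that rose, the windows of 250 bases before to 50 bases after the annotated start of Wnt1, Wnt4 and Wnt6 are printed 5′ to 3′ beside that of Wnt8b, whose brighter probe gave nearly the same level in both groups. They come from RefSeq on GRCm38.p6. Capitals mark the motifs searched on both strands: ACGTG and GCGTG, the cores of hypoxia response elements, CAAAG, the core of Tcf/Lef sites, and ATTAA, an AT-rich word.
Wnt1, chr15:98789607-98789906, plus strand: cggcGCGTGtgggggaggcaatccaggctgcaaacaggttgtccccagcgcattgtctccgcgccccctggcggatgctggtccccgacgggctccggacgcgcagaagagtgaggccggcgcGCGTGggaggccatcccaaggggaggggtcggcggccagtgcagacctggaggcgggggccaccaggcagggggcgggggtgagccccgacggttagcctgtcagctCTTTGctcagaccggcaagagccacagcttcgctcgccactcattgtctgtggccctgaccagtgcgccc
Wnt4, chr4:137277385-137277684, plus strand: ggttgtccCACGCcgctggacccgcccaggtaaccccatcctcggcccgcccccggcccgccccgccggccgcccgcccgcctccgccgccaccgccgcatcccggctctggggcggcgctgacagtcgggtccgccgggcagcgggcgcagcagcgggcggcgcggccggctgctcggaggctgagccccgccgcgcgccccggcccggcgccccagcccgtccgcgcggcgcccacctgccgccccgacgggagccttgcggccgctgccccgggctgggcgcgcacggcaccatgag
Wnt6, chr1:74771642-74771941, plus strand: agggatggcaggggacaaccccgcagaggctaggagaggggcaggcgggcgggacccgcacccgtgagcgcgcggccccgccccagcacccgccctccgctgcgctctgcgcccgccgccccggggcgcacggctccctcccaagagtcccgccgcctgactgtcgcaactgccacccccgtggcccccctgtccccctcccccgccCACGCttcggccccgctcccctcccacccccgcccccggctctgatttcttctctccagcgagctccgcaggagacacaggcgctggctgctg
Wnt8b, chr19:44493222-44493521, plus strand: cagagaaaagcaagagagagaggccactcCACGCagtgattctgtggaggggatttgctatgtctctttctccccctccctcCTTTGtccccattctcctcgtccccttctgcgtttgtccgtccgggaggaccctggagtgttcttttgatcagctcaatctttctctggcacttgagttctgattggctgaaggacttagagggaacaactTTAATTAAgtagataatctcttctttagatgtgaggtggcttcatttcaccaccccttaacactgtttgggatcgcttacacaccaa

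RefSeq gave a window for 8 of the 10 members, 11 windows in all. GC content was 70.7% at Wnt1, 84.3% at Wnt4 and 76.7% at Wnt6, against 48.3% at Wnt8b and a median of 52.7% over 32851 windows of the same length. High GC content was not particular to the ligands that rose. It was 86.3% at Wnt3a, 65.7% at Wnt3, 71.3% and 59.3% at Wnt11, and 55.0%, 53.0% and 78.0% at Wnt5b. GCGTG stands 2 times in the Wnt1 window and once each at Wnt4, Wnt6 and Wnt8b, and 32.4% of all windows hold it. ACGTG is in none of the 4 printed windows and in 19.6% of all. CAAAG is found once at Wnt1 and once at Wnt8b, on the opposite strand in both, and in 53.9% of all windows. Of the 4 printed windows only that of Wnt8b holds ATTAA, 2 times in an overlapping pair on opposite strands, beside 27.1% of all windows. The windows not printed hold ACGTG and GCGTG at Wnt5b and Wnt11, CAAAG at Wnt3, Wnt5b and Wnt11, and ATTAA at Wnt5b. Such matches describe the letters and are not shown to be bound.

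Among the dorsal midline ligands, Wnt1 rose on both of its probes, Wnt8b did not pass the test, and Wnt3a was too dim to test. Wnt1, the ligand best known from loss of the midbrain when it is missing, was measured by a pair of probes. On its brighter probe the log2 signal relative to the 75th percentile of the array was 2.10, 1.88 and 2.16 on null arrays 1, 2 and 3, against 0.61, 0.54 and 1.01 on wild type arrays 1, 2 and 3. All null arrays were above all wild type arrays. The difference was 1.32 ± 0.17 (log2, null minus wild type, ± the standard error of limma, n = 3 each), with an adjusted p of 0.00355 and a 95% interval of 0.92 to 1.73. The dimmer probe read -2.02, -2.89 and -1.84 on null arrays, against -5.02, -4.75 and -3.84 on wild type arrays. Here too the groups lay apart, by 2.29 ± 0.38 (adjusted p of 0.00964 among all probes), or 4.88-fold. Within slides 1, 2 and 3 the brighter probe differed by 1.49, 1.33 and 1.15 and the dimmer by 3.01, 1.85 and 2.0. Both probes kept their call under every alternative run. The difference of the brighter one ran from 1.23 to 1.47, the mean of both probes gave 1.80, and for the dimmer one normexp, a different background correction, gave 1.0.

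Wnt8b, a ligand of the dorsal forebrain, did not pass the test on either of its probes, and the probes pointed in different directions. Its brighter probe read 0.11, -0.16 and 0.18 on null arrays, against 0.06, 0.16 and 0.18 on wild type arrays. The groups overlap, with a difference of -0.09 ± 0.14 (adjusted p of 0.674, 95% interval -0.43 to 0.24). The dimmer probe read -2.82, -3.15 and -2.70 on null arrays, against -3.33, -3.32 and -3.50 on wild type arrays. All its null values were above its wild type values, with a difference of 0.49 ± 0.17 and an adjusted p of 0.0899 among all probes. Averaged over both probes, Wnt8b differed by 0.20 (adjusted p of 0.360), and without null replicate 2 its brighter probe differed by 0.0074 (0.980).

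Wnt3a, the close companion of Wnt1 in the roof of the neural tube, was at the edge of detection. Its probe passed the background flag on 2 of 3 null arrays and on 0 of 3 in wild type, and so it was not among the genes tested. The processed signal was 8.14, 9.68 and 10.8 on null arrays, against 6.59, 8.25 and 4.97 on wild type arrays. With each wild type array raised to its lowest signal well above background, unless the probe was brighter, Wnt3a was 1.26-fold higher in null heads. This fold is not a lower limit. In a fit without the filter on dim probes the log2 difference of Wnt3a was 0.42 and did not pass (limma adjusted p of 0.378).

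Wnt4 and Wnt6 rose among the ectodermal ligands, and Wnt3 and Wnt7b did not pass the test. Wnt4 read -1.54, -2.02 and -1.50 on null arrays, against -2.78, -2.53 and -2.65 on wild type arrays. The groups did not overlap, and null array 2 was the lowest of the null arrays. The difference was 0.97 ± 0.18 (adjusted p of 0.0106, 95% interval 0.55 to 1.39), with 1.25, 0.52 and 1.15 within slides 1, 2 and 3. Its call was lost without null replicate 1 (adjusted p of 0.0549), and normexp gave a smaller difference of 0.59 that still passed (0.0170).

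Wnt6 read 0.89, 1.15 and 0.96 on null arrays, against 0.55, 0.29 and 0.46 on wild type arrays. Again no null array fell among the wild type arrays, and the difference was 0.57 ± 0.14 (adjusted p of 0.0293, 95% interval 0.23 to 0.90). Within slides 1, 2 and 3 it was 0.34, 0.86 and 0.50. This call was the least stable of the 3: with slide, which is also replicate number, as a block its adjusted p was 0.0534, without the filter on dim probes 0.0635, without null replicates 1, 2 and 3 it was 0.0802, 0.105 and 0.0782, and without wild type replicates 1 and 2 it was 0.0539 and 0.104.

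Wnt3, which acts early in the primitive streak and later in dorsal neural tissue and ectoderm, read -2.69, -2.59 and -2.82 on null arrays, against -2.79, -3.13 and -3.20 on wild type arrays. One wild type array lay among the null arrays, and the difference was 0.34 ± 0.16 (adjusted p of 0.162, 95% interval -0.03 to 0.71), passing in 1 of 16 alternatives (array weights, 0.0489). Wnt7b, a ligand of ectoderm and forebrain, read -1.19, -1.67 and -1.53 on null arrays, against -1.75, -1.61 and -1.58 on wild type arrays. Its groups overlapped and differed by 0.18 ± 0.16 (adjusted p of 0.460, 95% interval -0.20 to 0.57).

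None of the 3 noncanonical ligands changed at an adjusted p under 0.05 (limma; 1 lower and 0 higher at an unadjusted p under 0.05). Wnt5a, which drives outgrowth of face and limbs, read 0.27, 0.25 and 0.24 on null arrays, against 0.59, 0.58 and 0.70 on wild type arrays. The null arrays were nearly identical (SD 0.014) and all lay below the wild type arrays (SD 0.066). The difference was -0.37 ± 0.12, or 77.2% of the wild type signal, with an adjusted p of 0.0631 and a 95% interval of -0.66 to -0.09. Over all alternatives run it stayed between -0.40 and -0.33, and it passed only with array weights (0.0234), where the adjusted p otherwise ran up to 0.182.

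Wnt5b read 1.85, 1.9 and 1.85 on null arrays, against 1.88, 1.83 and 1.56 on wild type arrays. These groups overlapped, with a difference of 0.11 ± 0.14 (adjusted p of 0.591, 95% interval -0.21 to 0.44). Wnt11, a ligand known for cell movements at gastrulation and in the heart, read -4.33, -3.90 and -4.46 on null arrays, against -4.46, -4.57 and -4.71 on wild type arrays. Its null arrays were all above its wild type arrays by a narrow margin, with a difference of 0.35 ± 0.18 (adjusted p of 0.204, 95% interval -0.075 to 0.78), and with normexp of 0.01. The difference between Wnt1 and Wnt5a, or between any other pair of ligands, was not tested.

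**Figure D2:**
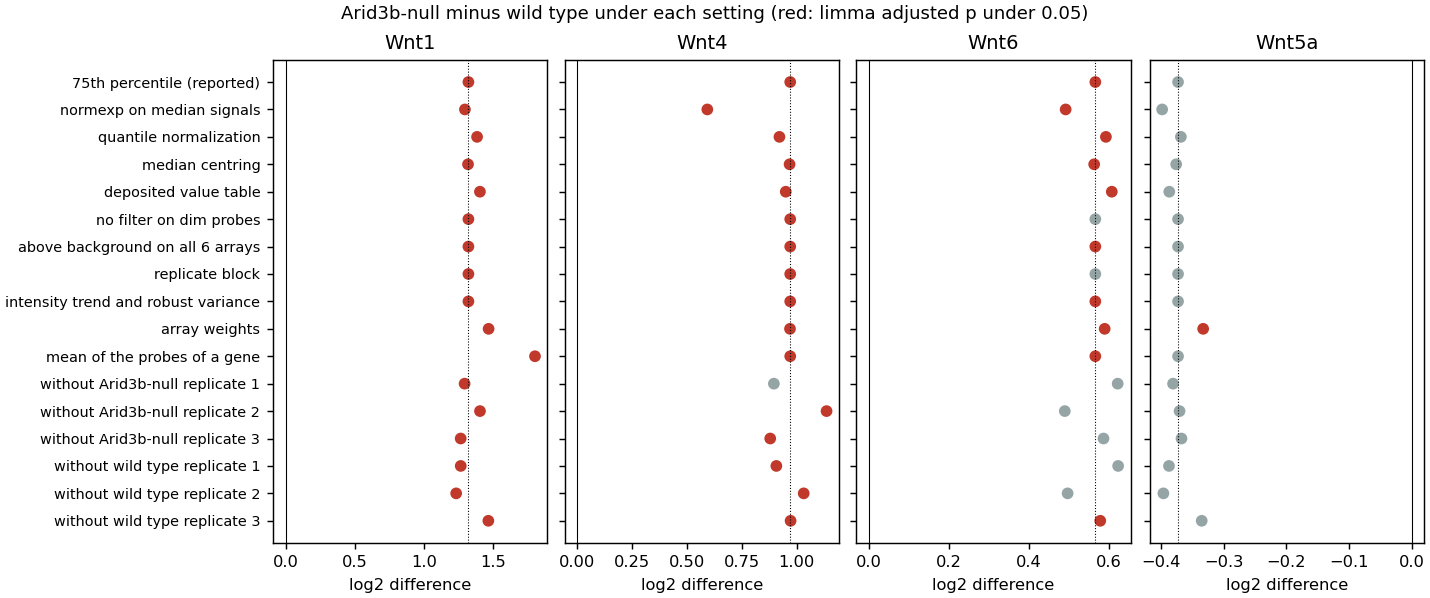
Log2 difference, Arid3b-null minus wild type (horizontal axes), of Wnt1, Wnt4, Wnt6 and Wnt5a under each setting (vertical axis); red points have a limma adjusted p under 0.05. Wnt1 is red in every row, Wnt4 in all but the row without null replicate 1, and Wnt6 and Wnt5a are grey in 7 and 16 of the 17 rows.

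The other Wnt genes were not among the chosen 10, and of the 9 listed 7 could be tested. Of the 5 that were above background on all 6 arrays 2 rose and 1 fell, beside 12.3% and 11.2% of all genes, with a median of 0.13. Wnt2b and Wnt10b entered only because they were bright in null heads. Wnt10a rose by 1.07 ± 0.18 (2.10-fold, adjusted p of 0.00796), with processed signals of 149, 168 and 231 on null arrays, against 87.2, 89.8 and 60.0 on wild type arrays. Wnt9a, known from the formation of joints, rose by 0.99 ± 0.17 (1.99-fold, adjusted p of 0.00857), with 634, 571 and 689 on null arrays, against 310, 258 and 301 on wild type arrays. Wnt7a, a ligand of dorsal ectoderm and of neural tissue, fell by 1.69 on the log2 scale (standard error 0.24, 31.1% of the wild type signal, adjusted p of 0.00439), with 45.2, 44.2 and 98.6 on null arrays, against 159, 147 and 214 on wild type arrays. All 3 had groups that did not overlap. Wnt2b was well above background on all 3 null arrays and on no wild type array. It was 1.96-fold higher by processed signal (95% interval of the log2 difference 0.53 to 1.42), while normexp gave a log2 difference of -0.07. With normexp Wnt10a was 0.68 and Wnt7a -1.10, both still called.

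**Figure D3:**
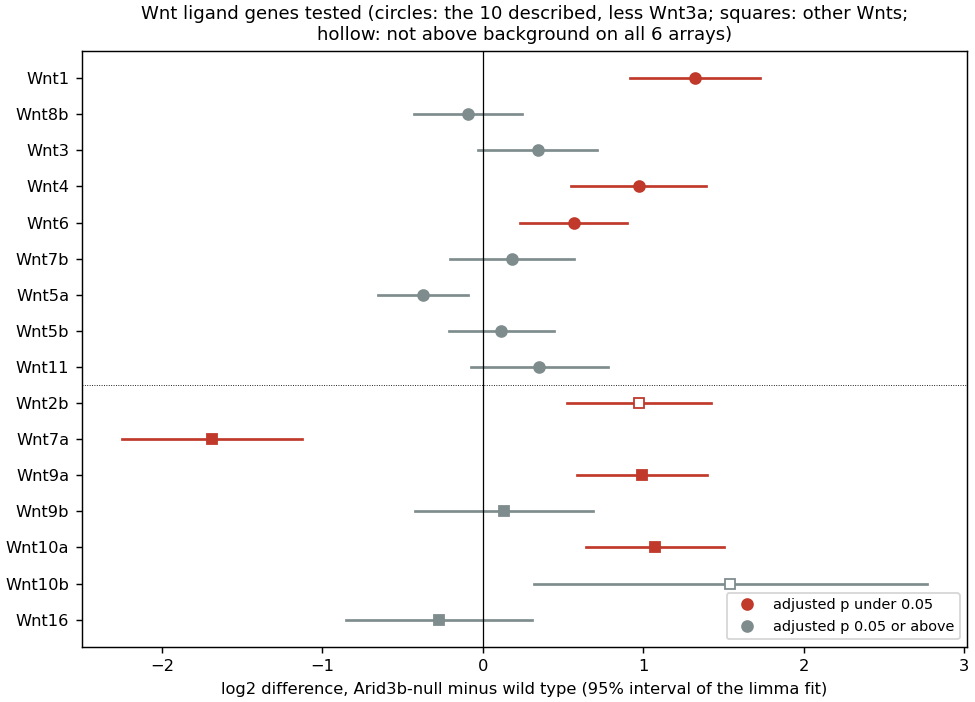
Log2 difference, Arid3b-null minus wild type (horizontal axis), with the 95% interval of the limma fit for each tested Wnt gene (vertical axis); circles are the described ligands and squares the other Wnts. Hollow marks are genes not above background on all 6 arrays (Wnt2b and Wnt10b), and of the filled ones Wnt1, Wnt4, Wnt6, Wnt9a and Wnt10a are red above 0 and Wnt7a below.

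Several Wnt genes lie in pairs with no protein-coding gene between them in the RefSeq gene order: Wnt1 with Wnt10b on chromosome 15, Wnt6 with Wnt10a on chromosome 1, and Wnt3 with Wnt9b and Wnt3a with Wnt9a on chromosome 11. Beside Wnt1 at 1.32, Wnt10b was at 1.54 ± 0.52 and did not pass (adjusted p of 0.0726; above background on 3 of 3 arrays in null heads and 2 of 3 in wild type heads). Wnt6 at 0.57 and Wnt10a at 1.07 were both called. Wnt3 at 0.34 and Wnt9b at 0.13 ± 0.24 (adjusted p of 0.726) were both not called.

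The next list held 9 genes of Wnt lipid attachment, transport and handling at or outside the cell surface. Of these 1 rose and none fell, beside 12.3% and 11.2% of all genes, with a median of 0.10. At an unadjusted p under 0.05 in limma, 3 were higher and 1 lower, beside 2768 and 2838 of all 14906 genes. Porcn, the acyltransferase that attaches the lipid to Wnts, rose by 1.02 ± 0.16 (2.03-fold, adjusted p of 0.00576) and kept its call under every alternative run. Its log2 signal averaged 0.23 in null heads, against -0.80 in wild type heads. Wls, the carrier that takes Wnts to the cell surface, was at 0.92 ± 0.30 and did not pass (adjusted p of 0.0640); it passed in 6 of 16 alternatives, with adjusted p from 0.0347 to 0.176 over all of them. The glypican Gpc3 was at 0.35 ± 0.14 and Tmed5 at -0.75 ± 0.28, neither passing (0.112 and 0.0989), though Gpc3 passed in 2 and Tmed5 in 4 of 16 alternatives, one of which for Tmed5 left out wild type replicate 3 (0.00703).

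Among 16 receptors and coreceptors 1 rose and none fell, beside 12.3% and 11.2% of all genes, with a median of 0.22. At an unadjusted p under 0.05 in limma, 4 were higher and 1 lower, beside 2768 and 2838 of all 14906 genes. Ror2, a receptor for Wnt5a, rose by 0.63 ± 0.14 (1.55-fold, adjusted p of 0.0208); it was not called without null replicates 1, 2 and 3 (0.0888, 0.0793 and 0.0519) or wild type replicate 2 (0.0565). Its relative Ror1 was at 1.14 ± 0.35 (0.0540), and passed in 5 of 16 alternatives, among them slide as a block (0.0151) and the fit without wild type replicate 3 (0.00814), while normexp gave 0.36 (0.138). Fzd1 and Fzd3 were at 0.43 ± 0.14 and 0.35 ± 0.14 (0.0692 and 0.104), and passed in 2 and 1 of 16 alternatives, one of which for Fzd1 left out wild type replicate 3 (0.0341). Of 6 agonist genes, which hold R-spondins, their receptors and Ndp, none rose and 1 fell, beside the same shares of all genes, with a median of 0.04. Ndp, which encodes norrin, a Frizzled4 ligand that is not a Wnt, fell by 0.90 on the log2 scale (standard error 0.17, adjusted p of 0.0112; 0.0565 without null replicate 1). Lgr5, an R-spondin receptor, was at 0.51 ± 0.16 (0.0567; 0.0420 with slide as a block).

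Of 11 antagonist genes that were above background on every array, 5 rose and 1 fell, beside 12.3% and 11.2% of all genes. Their median was 0.59. Sfrp4 and Sost, kept only because they were bright in null heads, were not called. With these included, the median of 13 was 0.63. The rises were 2, 3 and 3 without null replicates 1, 2 and 3, and 3 without wild type replicate 1. Wif1, which binds Wnts outside the cell, was 3.86-fold higher (log2 difference 1.95 ± 0.15, adjusted p of 0.000925), with a mean log2 signal of -2.15 in null heads, against -4.10 in wild type heads; normexp gave 1.0. Dkk3 rose by 1.07 ± 0.18 (0.00727) and Sostdc1, an inhibitor of Lrp coreceptors and of Bmps, by 0.66 ± 0.12 (0.0108). Sostdc1 lost its call without null replicate 1 (0.0502) and as the mean of its probes (0.0662); its other probe was at 0.35 ± 0.29. Dkk2 fell by 1.03 on the log2 scale (standard error 0.15, 0.00450). The remaining 2, named after their values were seen, were Frzb (0.56 ± 0.13, 0.0257) and Dkk1 (0.59 ± 0.16, 0.0399), the Lrp inhibitor needed for the head. Dkk1 lost its call in 12 of 16 alternatives, among them slide as a block (0.0618) and the fits without any single array (0.0507 to 0.127). The others were normexp (0.0520), quantile normalization (0.0604), median centring (0.0560), the deposited table (0.0692) and no filter on dim probes (0.0820). Frzb lost its call without that filter (0.0568), without null replicates 1, 2 and 3 (0.116, 0.0634 and 0.0774) and without wild type replicates 1 and 2 (0.0725 and 0.0937).

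Genes often used as readouts of canonical signalling moved in both directions. Of 12 that were above background on all 6 arrays 4 rose and 1 fell, beside 12.3% and 11.2% of all genes, with a median of 0.47. With T, kept only because it was bright in null heads, the rises were 5 of 13, and 3 without null replicate 1, 2 or 3 or wild type replicate 2. Rnf43, a ligase that removes Frizzled receptors, rose by 1.19 ± 0.17 (2.28-fold, adjusted p of 0.00477), and the transcription factor gene Sp5 by 0.86 ± 0.12 (0.00468). T, the brachyury gene of the primitive streak, had processed signals of 33.6, 37.8 and 41.9 on null arrays, against 16.6, 8.2 and 12.0 on wild type arrays, 2 of which passed the background flag, and normexp gave a log2 difference of 0.22. Ccnd1, encoding cyclin D1, fell by 1.20 on the log2 scale (standard error 0.13, 0.00220), and its mean log2 signal was 2.23 in null heads, against 3.43 in wild type heads. Nkd1 and Apcdd1, named after their values were seen, rose by 0.56 ± 0.13 (0.0258) and 1.19 ± 0.35 (0.0483). Nkd1 was not called without null replicates 1, 2 and 3 (0.0810, 0.0971 and 0.0726) or wild type replicate 2 (0.0806), and Apcdd1 without null replicates 1, 2 and 3 (0.130, 0.0624 and 0.155) or wild type replicates 1 and 2 (0.129 and 0.12). Axin2, the most used readout, was at 0.79 ± 0.34 and did not pass (0.134), while it passed as the mean of its probes (0.52, 0.0358) and without wild type replicate 3 (1.14, 0.015), and in 3 of 16 alternatives in all.

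Of 14 transducers inside the cell none rose and 1 fell, beside 12.3% and 11.2% of all genes, with a median of -0.05. Ctnnb1, the beta-catenin gene, was at 0.03 ± 0.12 (named after its value was seen), and Gsk3a, Pygo2 and Dvl2 were at -0.32, -0.31 and 0.43 without passing (0.117, 0.201 and 0.155). Bcl9, a cofactor of beta-catenin, fell by 0.79 on the log2 scale (standard error 0.20, 0.0304), a call lost without null replicates 1 and 3 (0.112 and 0.101) and wild type replicates 1 and 2 (0.0859 and 0.0672). Dvl2 passed without wild type replicate 3 (0.0423). In planar polarity, the arm in which noncanonical Wnts act, 1 of 10 rose and none fell. At an unadjusted p under 0.05 in limma, 2 were higher and 1 lower, beside 2768 and 2838 of all 14906 genes. The median was 0.20 over the 9 that were above background on every array. It was 0.28 with Prickle2, kept only because it was bright in null heads. Prickle1 rose by 0.57 ± 0.16 (0.0385), with calls lost without null replicates 1 and 2 (0.131 and 0.127) and wild type replicates 1, 2 and 3 (0.0826, 0.0849 and 0.0528). Celsr2 was at -0.54 ± 0.19 (0.0891) and Celsr1 at 0.37 ± 0.15 (0.12), both core polarity cadherins, and the other probe of Celsr2 was at 0.08 ± 0.15. The core polarity gene Vangl2 was at 0.65 ± 0.29 (0.150), and it passed without wild type replicate 3 (0.0460).

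Over these 7 lists, 13 of 81 tested genes rose and 4 fell, a share of 21.0% beside 23.5% of all genes; T is among the 13. The rises were 6, 7 and 8 without null replicates 1, 2 and 3, and 8 and 22 without wild type replicates 2 and 3; the falls were 2 without null replicate 1 and 7 without wild type replicate 3.

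**Figure D4:**
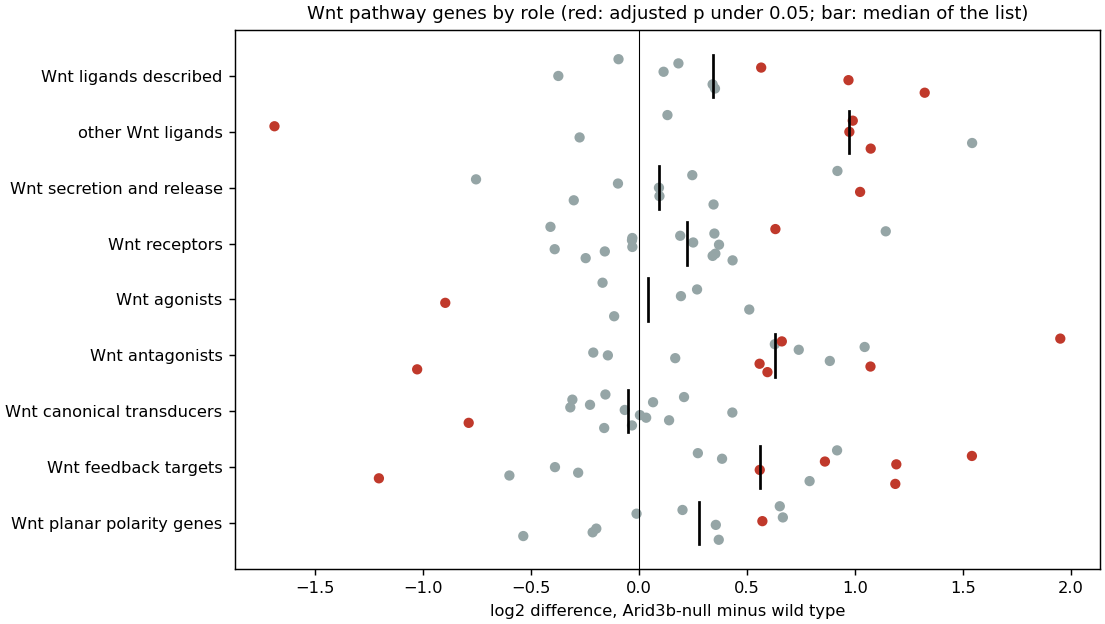
Log2 difference, Arid3b-null minus wild type (horizontal axis), of each tested gene of the Wnt lists by role (vertical axis); red points have a limma adjusted p under 0.05 and bars mark the list median. Antagonists and feedback targets hold 5 red points above 0 each (T, not above background on all wild type arrays, is one of them), receptors and transducers 1 red point each.

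Markers of the tissues that make these ligands were read on the same arrays, and their part in the ligand results was not tested. Of 13 genes of the dorsal midline and roof plate 7 rose and none fell, beside 12.3% and 11.2% of all genes, with a median of 0.63. Their summed level, in units of the 75th percentile, was 35.6 to 41.5 in null heads, against 26.5 to 31.6 in wild type heads, and all 13 were detected. The 7 were Lmx1a (0.63 ± 0.13), Lmx1b (0.56 ± 0.16), Gdf7 (0.65 ± 0.17), Msx2 (0.87 ± 0.19), Pax3 (0.58 ± 0.12), Pax7 (0.85 ± 0.24) and Bmp7 (0.69 ± 0.18), named after their values were seen. With normexp Lmx1b was at 0.32 (adjusted p of 0.163) and Gdf7 at 0.22 (0.339). The count of 7 was 0, 0 and 5 without null replicates 1, 2 and 3, and 4, 1 and 10 without wild type replicates 1, 2 and 3. Of 10 genes of the midbrain and its hindbrain boundary, where Wnt1 is made, 2 (Fgf8 and Otx2) rose and none fell, beside the same shares of all genes, with a median of 0.42. None was called without null replicate 1, 2 or 3 or wild type replicate 1 or 2, and 5 were without wild type replicate 3. Their summed level was 28.3 to 32.5 in null heads, against 19 to 24 in wild type heads, and Otx2 alone made up 19.6 to 23.7 in null heads, against 12.5 to 16.2 in wild type heads. Without Otx2 the sum was 8.68 to 9.02 in null heads, against 6.54 to 7.83 in wild type heads. En1 and En2, which depend on Wnt1 in the midbrain, were at 0.50 ± 0.20 and 0.09 ± 0.14 without passing (0.12 and 0.705).

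Surface ectoderm, the source of Wnt6, had no marker called among 13 in limma. At an unadjusted p under 0.05 in limma, 3 were higher and 1 lower, beside 2768 and 2838 of all 14906 genes. Without wild type replicate 2, 3 were called higher, and without wild type replicate 3, 1. The summed level of the surface ectoderm markers was 39.7 to 42.3 in null heads, within the 26.4 to 53.8 of wild type heads, and their median was 0.23. The sum leans on Krt18, the brightest of them, named after its values were seen. Krt18 read 4.66, 4.68 and 4.61 on null arrays, against 3.91, 5.17 and 3.75 on wild type arrays 1, 2 and 3. The sum without Krt18 was not taken. Of 12 markers of cranial mesenchyme, where Wnt5a is made, 1 rose and 1 fell, beside 12.3% and 11.2% of all genes, with a median of 0.23. Their summed level was 45.8 to 53.6 in null heads, against 43.9 to 46.5 in wild type heads.

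For each ligand that rose, the genes with the nearest profile over the 6 arrays were found by the root mean square distance of centred log2 values. The nearest to Wnt1 were Smim24 (0.0415), Slc4a5 (0.0548) and Cbs (0.0615), to Wnt4 they were Hs3st3a1 (0.0833), Ddn (0.0841) and Slc17a9 (0.0929), and to Wnt6 they were Spock2 (0.0415), Zkscan2 (0.0465) and Nosip (0.0471). All 9 had log2 differences of their own close to that of the ligand, from 0.51 for Spock2 to 1.35 for Smim24. With 6 arrays in 2 groups, such a distance includes the group difference itself.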

How the data were processed

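RNA of embryonic heads was copied, given the dye Cy3 and read on one-colour Agilent arrays, per the labels' protocols. The deposited scanner files, read with version 10.7.3.1 of Feature Extraction per the file headers, give for every spot a background-subtracted and detrended intensity, raw median intensities, and flags. The deposited log2 value table of the authors has 24158 rows that match non-control probes, and its scaling is not stated.

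Values are log2 of the processed intensity minus the 75th percentile of the array. Controls and spots flagged as outliers (84 to 156 an array) were removed, and repeated spots averaged. RefSeq accessions named 26424 of 39429 probes. A probe had to be well above background on all 3 arrays of either group, with values on 5 arrays or more; 26288 passed, and each of 14906 genes was read from its brightest one. The number of arrays limits the precision. The functions lmFit and eBayes of limma 3.58.1 (R 4.3.3) were fitted to all genes and to all kept probes, with Benjamini-Hochberg adjusted p under 0.05; the 95% intervals are not adjusted. For Wnt3a, which was well above background on no wild type array, a fold was taken after raising dim arrays. Each wild type array was set to its lowest signal well above background unless the probe itself was brighter. The same step left the value of Wnt2b unchanged, and neither fold is a lower limit. The steps were tested on simulated data.

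The 10 ligands, the lists and the tests were chosen with earlier results of these data known. Named genes are the 10 ligands, Arid3b, up to 4 genes of each Wnt list with the smallest p and the 3 nearest profiles of each ligand that rose; Axin2, Wnt9b, Wnt10b, Hoxb8, En1, En2, Fgf8, Otx2 and others so marked were named after their values were seen. One of 196 list entries was updated from an older symbol. Each slide held the null and wild type array of 1 replicate number, so slide block and replicate block are 1 model; deviations from the group means correlated at -0.20, 0.15 and 0.42 for replicates 1, 2 and 3. The headers give the array's own build, and RefSeq coordinates on GRCm38.p6 are printed only for promoter windows.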

Additional observations from a re-analysis of the deposited data

How the results depend on the processing

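Alternatives were normexp background correction (offset 50, on median signals), quantile normalization, median centring, the deposited table, no filter or a stricter filter on dim probes, the replicate block, robust variance with a trend on intensity, weights for arrays, the mean of a gene's probes and leaving out each array. The count of all genes called, 3506, was 2271 with no filter, 6684 with array weights and 1467 to 5209 when 1 array was left out. Ligand genes called higher, 3, were 1 to 3 and ligand probes, 4, were 2 to 4 when 1 array was left out; array weights called 1 ligand gene and 1 ligand probe lower (Wnt5a), where 0 were called otherwise, and the lower counts stayed at 0 with any array left out. Wnt pathway genes called higher, 13, were 8 with no filter, 32 with array weights and 6 to 22 when 1 array was left out; those lower, 4, were 8 with array weights and 2 to 7 when 1 array was left out.

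With the replicate block the pairing by slide gave 3689 genes called, 2 ligand genes and 3 ligand probes higher, and 16 pathway genes higher and 5 lower; of the genes named here Wnt6 (0.57, adjusted p of 0.0534), Dkk1 (0.0618) and Lmx1b (0.0688) lost their calls, and Wls, Ror1, Lgr5 and Tmed5 gained one. Not every same-numbered pair of arrays deviated together. Wnt8b changed direction as the mean of its probes (0.20) and without null replicate 2 (0.0074), and ranged from -0.163 to 0.0074 when 1 array was left out, and Wnt2b changed direction with normexp (-0.0654); the cause was not tested. Of the gene results under these alternatives, 775 kept direction and side of the threshold, 111 lost a call, 33 gained one and 3 changed direction. Dim probes limit the values of Wnt3a, Wnt2b and T, whose signals lie near background.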
